A study of Mus musculus with 12 samples.

Results

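Actr2 and Arpc2 encode subunits of the Arp2/3 complex, and both were selected by their gene symbols from the deposited table of genes that differed between mice in standard housing (SH) and in an enriched environment (EE). They are 2 of the 584 genes of the table. The mice were male C57BL/6 animals, weaned at 3 weeks of age and housed for 5 weeks in standard cages (SH) or in cages with toys, tunnels and hideouts (EE), and RNA of the whole hippocampus was sequenced at 8 weeks of age in 3 SH and 3 EE samples. By the paper, EE cages also held more animals than SH cages, so furnishing and number of cage mates cannot be told apart. No group carried a genetic change or received a drug. The 6 m6A immunoprecipitation libraries of the study were not analysed here.

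The Arp2/3 complex starts a new actin filament on the side of an existing filament and so builds branched actin networks. In neurons such networks fill the heads of dendritic spines, the sites of most excitatory synapses, and they are remodelled when synapses strengthen or new spines grow. Actr2 encodes Arp2, an actin-related protein that forms the start of the daughter filament together with Arp3. Arpc2 encodes a core subunit that holds the complex on the mother filament. The complex is idle until a nucleation promoting factor such as N-WASP or the WAVE complex binds it.

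Actr2 lies on chromosome 11 of GRCm38 (20062304 to 20112951, minus strand) and Arpc2 on chromosome 1 (74236490 to 74268209, plus strand). RefSeq lists 2 transcripts of Actr2, whose proteins have 394 and 399 residues, and 3 transcripts of Arpc2 that share a protein of 300 residues. Reads were counted per gene, so the values below are sums over these transcripts. No other annotated gene overlapped Actr2 or Arpc2. The sequences just upstream of both genes are shown because these RNAs were at higher mean levels in EE in near-equal proportion, and because they allow a reader to see which common promoter letters the pair shares. They come from RefSeq (GRCm38.p6), are written 5′ to 3′ on the strand of the gene and end at the base before the first annotated transcript. RefSeq gives Arpc2 a further start 27 bases downstream of the first, at 74236517, from which its other 2 transcripts begin. Capitals mark GC boxes (GGGCGG), the ETS core (CCGGAAG), the CCAAT box (CCAAT) and the NRF1 core (GCATGCGC), each on either strand.
Actr2, chr11:20112952-20113201, minus strand: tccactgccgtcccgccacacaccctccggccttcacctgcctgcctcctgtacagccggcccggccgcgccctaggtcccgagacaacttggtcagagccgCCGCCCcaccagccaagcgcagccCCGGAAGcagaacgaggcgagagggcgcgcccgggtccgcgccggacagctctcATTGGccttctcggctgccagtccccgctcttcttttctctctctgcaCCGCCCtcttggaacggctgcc
Arpc2, chr1:74236267-74236489, plus strand: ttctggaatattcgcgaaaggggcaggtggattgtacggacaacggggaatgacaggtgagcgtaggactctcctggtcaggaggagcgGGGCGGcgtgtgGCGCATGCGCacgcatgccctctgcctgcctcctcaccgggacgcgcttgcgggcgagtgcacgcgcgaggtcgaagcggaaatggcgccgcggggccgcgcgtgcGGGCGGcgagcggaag

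Both upstream regions were rich in G and C. In 250 bases upstream of a start the GC content was 70.0% for Actr2 and 68.4% for Arpc2, whose window was taken from the downstream start and so holds 27 exonic bases of the earliest transcript, beside a median of 52.4% over 32851 mouse promoters. Both windows held GC boxes, the letters bound by Sp1, as did 32.7% of all promoters, and each of the pair held 2. Promoters of similar GC content were not compared. Actr2 held 1 ETS core, which 6.91% of promoters hold, and 1 CCAAT box, which 33.8% hold. Arpc2 held neither and had 2 overlapping NRF1 cores on opposite strands, a motif in 2.26% of promoters. Both are readings of a single palindromic stretch. The TATA box (TATAAA, 12.4% of promoters), the cAMP response element (TGACGTCA, 1.55%) and the CArG box of serum response factor (1.47%) were not in either window. These matches describe letters only, and binding was not measured.

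Actr2 RNA had a higher mean in EE than in SH. Its level was 111.3, 107.8 and 117.8 FPKM (fragments per kilobase of exon, scaled to the depth of the library) in SH replicates 1, 2 and 3, and 129.6, 122.1 and 125.1 FPKM in EE replicates 1, 2 and 3. All 3 EE libraries lay above all 3 SH libraries, and the gap between the highest SH and the lowest EE library was 4.33 FPKM, or 3.68% of the SH value. The SH mean was 112.3 ± 5.06 FPKM (SD, n = 3) and the EE mean 125.6 ± 3.75 FPKM (SD, n = 3), so the EE mean was 11.8% higher. These levels rested on 13111 to 17496 reads per SH library and 17904 to 24861 reads per EE library, for which counting error alone was between 0.634% and 0.873%. The spread between samples, with a coefficient of variation of 4.51% in SH and 2.98% in EE, was larger than this counting error. On the log2 scale EE exceeded SH by 0.16 ± 0.06 (standard error). The quasi-likelihood test of edgeR gave an unadjusted p of 0.018 and, adjusted over the 584 genes by the Benjamini-Hochberg method, an adjusted p of 0.021.

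Arpc2 RNA differed by almost the same proportion. Its level was 183.4, 187.3 and 204.4 FPKM in SH replicates 1, 2 and 3, and 213.0, 217.6 and 211.3 FPKM in EE replicates 1, 2 and 3. The groups did not overlap here either, with a gap of 6.86 FPKM, or 3.35% of the highest SH value, and SH replicate 3 stood nearest to the EE libraries. The SH mean was 191.7 ± 11.2 FPKM (SD, n = 3) and the EE mean 213.9 ± 3.26 FPKM (SD, n = 3), so the EE mean was 11.6% higher. The EE libraries were close together, with a coefficient of variation of 1.52%, against 5.83% in SH. Read counts were 9627 to 13533 in SH and 13116 to 18713 in EE. The log2 difference of 0.16 ± 0.06 (standard error) had an unadjusted p of 0.017 and an adjusted p of 0.020 in edgeR.

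**Figure D1:**
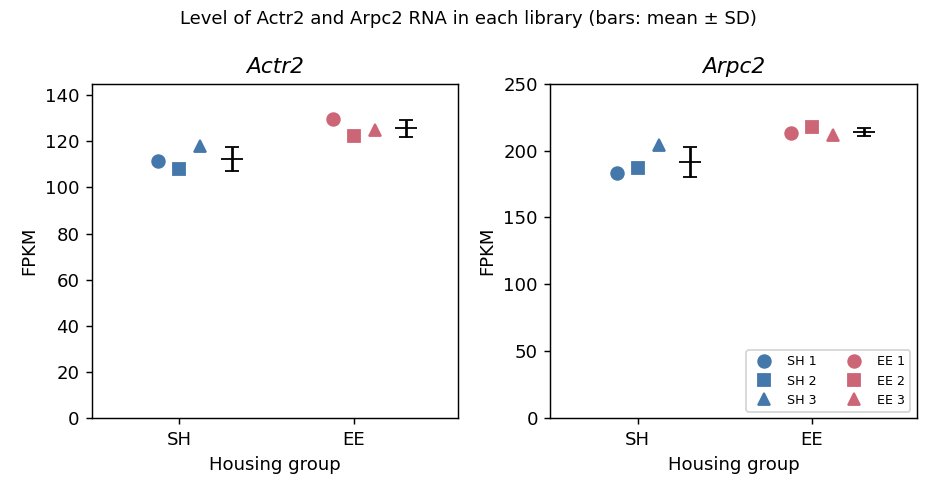
Level of Actr2 and Arpc2 RNA in FPKM (y axis, from 0) by housing group, with 1 point per library and the mean ± SD of 3 libraries as bars. In both genes the 3 EE points lie above the 3 SH points, by 4.33 FPKM in Actr2 and 6.86 FPKM in Arpc2 at the nearest.

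Neither gene passed an unadjusted p under 0.01, the p-value part of the study's threshold, in edgeR with the totals behind FPKM as library sizes. In that test 19.2% of the 584 genes were called higher in EE. DESeq2 on the same totals called both Actr2 (unadjusted p = 0.0027, adjusted p = 0.0089) and Arpc2 (unadjusted p = 0.0047, adjusted p = 0.010). There 20.9% of the table was called higher. The rows of the table had been chosen by the study for a difference between these same 6 libraries, so the p-values of Actr2 and Arpc2 are not independent of their presence in it, and 583 of the 584 adjusted p-values were under 0.05. Complete separation of the groups, seen in Actr2 and Arpc2 with EE on top, was found in 37.2% of the table and so was common in it. Among the 246 genes with a higher mean in EE, Actr2 ranked 195 and Arpc2 201 by log2 fold change, where the median was 0.21.

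The call of each gene moved with the tool, and how far EE lay above SH moved with the scaling of the libraries. Called genes split into 112 higher and 237 lower with the totals, into 229 and 53 with edgeR's TMM factors, into 233 and 29 with DESeq2's own size factors, and into 25 and 319 with the sum of the table's counts as library size. The TMM and DESeq2 factors were estimated from these 584 genes alone, which the study had chosen for differing between the groups, and they moved the median of all fold changes toward 0. Factors from all expressed genes were not tested. With TMM factors edgeR gave log2 fold changes of 0.24 for Actr2 (adjusted p = 0.0088) and 0.24 for Arpc2 (adjusted p = 0.0091), both past the threshold, as were 39.2% of the table in this direction. DESeq2's own size factors moved the median log2 fold change of all genes by 0.11 and gave 0.27 for both Actr2 (adjusted p = 5.7e-05 from DESeq2) and Arpc2 (adjusted p = 0.00018 from DESeq2), also past it, with 39.9% of the table called higher. With the table sum, edgeR gave 0.10 for Actr2 (adjusted p = 0.18) and 0.098 for Arpc2 (adjusted p = 0.18). Every scaling kept both genes higher in EE. SH replicate 3 had the highest SH level of each gene, and without it the log2 fold changes were 0.20 for Actr2 and 0.21 for Arpc2, both past the threshold of an unadjusted p under 0.01 in edgeR, which called 16.8% of the table higher. In the other 5 fits that left out a single library, neither gene passed it.

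Arpc2 had the higher FPKM of the pair in every library. Averaged over the 6 libraries, its level of 202.8 FPKM was the 13th highest of the table, and that of Actr2, 119.0 FPKM, the 38th. The ratio of Arpc2 to Actr2 FPKM, a ratio of levels per exon length in which the depth of the library cancels, was 1.65, 1.74 and 1.74 in SH replicates 1, 2 and 3 and 1.64, 1.78 and 1.69 in EE replicates 1, 2 and 3. On the log2 scale Arpc2 was higher by 0.77 on average. The exact sign-flip permutation test over 6 libraries gave p = 0.031 (two-sided), the smallest it can give. That p measures the spread between libraries only. A bias between the genes shared by all libraries, such as one from the exon lengths used, would not show in it. Counts went the other way, with 0.733 to 0.794 reads on Arpc2 per read on Actr2, because the exons behind FPKM span 1642 bases in Arpc2 and 3684 bases in Actr2. The RefSeq exons of Arpc2 span 1653 bases, close to the length used for FPKM.

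The ratio of Arpc2 to Actr2 did not differ detectably between SH and EE. The SH mean was 1.71 ± 0.051 (SD, n = 3) and the EE mean 1.70 ± 0.070 (SD, n = 3), and the ranges overlapped. The mean log2 ratio was 0.77 in each group, and the difference of EE minus SH was -0.0021 with a standard error of 0.042 (exact permutation test, two-sided, p = 0.90, where 3 against 3 cannot go below 0.1). Over all 6 libraries the log2 ratio had an SD of 0.047. For comparison, the median SD of the log2 ratio over the other 583 genes was 0.21 against Actr2 and 0.21 against Arpc2, a value that includes genes lower in EE. In order of steadiness Arpc2 ranked 38 of 583 among the partners of Actr2, and Actr2 ranked 28 of 583 among the partners of Arpc2. These ranks also include genes lower in EE, and a ranking among the genes higher in EE alone was not made.

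**Figure D2:**
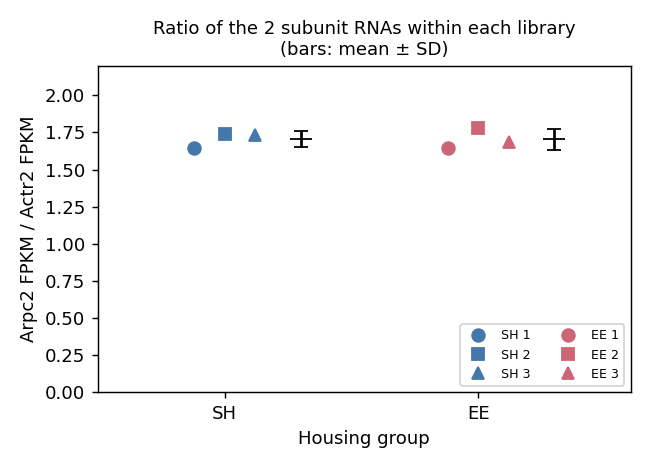
Ratio of Arpc2 to Actr2 FPKM within each library (y axis, from 0, no unit) by housing group, with the mean ± SD of 3 libraries as bars. All 6 ratios lie between 1.64 and 1.78, and the SH and EE points overlap.

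Within the groups, the likeness of Actr2 and Arpc2 rested on SH replicate 3. Relative to its group mean on the log2 scale, Actr2 deviated by -0.012, -0.058 and 0.070 in SH replicates 1, 2 and 3, and Arpc2 by -0.062, -0.032 and 0.094. In these SH samples the signs of Actr2 and Arpc2 matched, and SH replicate 3 was highest in each. In EE replicates 1, 2 and 3 the deviations were 0.045, -0.040 and -0.0053 for Actr2 and -0.0064, 0.024 and -0.018 for Arpc2, so EE replicates 1 and 2 had opposite signs. Pearson's r between Actr2 and Arpc2 in log2(FPKM + 0.1) over the 6 libraries was 0.90, and 0.60 for the deviations from the group means. Without SH replicate 3, and with the group means recomputed, the r of the deviations turned to -0.72, while leaving out any other library gave 0.54 to 0.82. The r of 0.90 carries the group difference for which the rows were chosen. The median r with Actr2 over the other genes with a higher mean in EE was 0.82, and Arpc2 ranked 71 of 583. The median r with Arpc2 over the same kind of genes was 0.79, and Actr2 ranked 65 of 583. The likeness of the pair was therefore exceeded by that of many other genes of the table.

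The genes most like each member were not the same. For Actr2 they were Gabra4, a subunit gene of the GABA-A receptor (r = 0.99 over 6 libraries), Fam204a (0.99), Vps29, a subunit of the retromer complex that sorts cargo from endosomes (0.98), the phosphatase gene Acp1 (0.98) and the palmitoyltransferase gene Zdhhc2 (0.98). Their exon GC content, between 42.2% and 44.5%, was near the 43.9% median of the table genes higher in EE, beside 40.6% in Actr2. For Arpc2 they were Cfap20 (r = 0.995), the neuropeptide gene Cort (0.99), the neuronal pentraxin gene Nptx2, whose product clusters AMPA receptors (0.98), Capzb (0.98) and the ubiquitin-conjugating enzyme gene Ube2d2a (0.98). Their GC content lay between 48.9% and 58.5%, beside 50.0% in Arpc2.

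Capzb encodes the beta subunit of the capping protein that stops growth at the fast end of actin filaments. Of the genes of the actin list given below, it was the most like Arpc2. Its level was 137.4, 140.3 and 159.5 FPKM in SH replicates 1, 2 and 3 and 160.7, 163.6 and 161.1 FPKM in EE replicates 1, 2 and 3. The SH libraries stood in the order of Arpc2, with SH replicate 3 next to the EE libraries, and the deviations of Capzb and Arpc2 from their group means had an r of 0.99, and of 0.93 without SH replicate 3. Nckap1, a subunit of the WAVE complex that activates Arp2/3, ranked 6 of 583 for Actr2 (r = 0.98) and 29 for Arpc2 (r = 0.94). The r of its deviations from the group means was 0.89 with Actr2 and 0.78 with Arpc2. Without SH replicate 3, this r was 0.72 with Actr2 and -0.72 with Arpc2. Leaving out any other library gave 0.82 to 0.98 with Actr2 and 0.80 to 0.91 with Arpc2. The level of Nckap1 was 174.7, 169.5 and 183.5 FPKM in the SH libraries and 195.3, 193.4 and 194.3 FPKM in the EE libraries, in replicate order. Again no library of a group reached the other group.

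**Figure D3:**
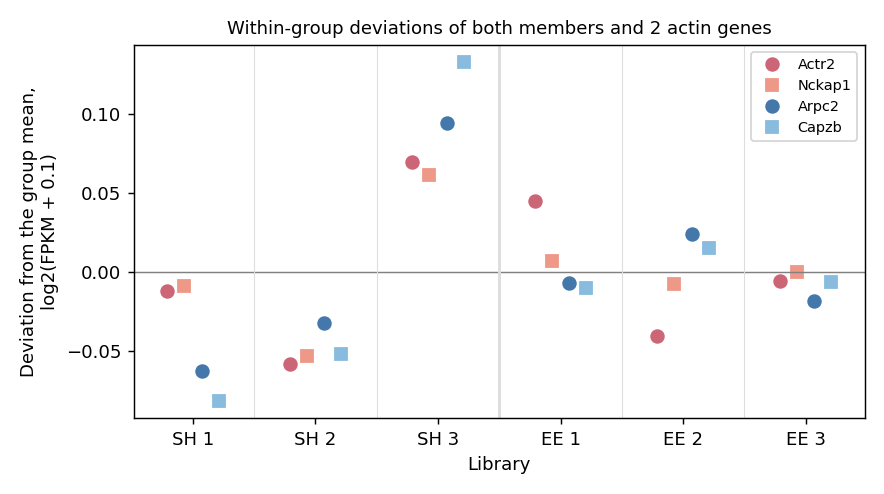
Deviation of each library from its group mean in log2(FPKM + 0.1) (y axis) for Actr2, Arpc2, Nckap1 and Capzb, with 1 point per gene and library. Points of all 4 genes are below 0 in SH replicates 1 and 2 and above 0 in SH replicate 3, whereas Actr2 and Arpc2 lie on opposite sides of 0 in EE replicates 1 and 2.

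Of a list of 124 genes of the actin machinery, 7 were in the table, and the remaining genes were not analysed here. The list is not complete, and table genes outside it, such as Coro6 and Fam49b, were not counted. The table held 2 of 10 listed Arp2/3 subunits, namely Actr2 and Arpc2, so the stoichiometry of the whole complex was not measured here. Of the other listed genes it held 2 of 27 nucleation promoting factors and their regulators, and 0 of 10 inhibitors and branch factors. It held 1 of 40 listed actins and filament end or monomer factors, and 2 of 37 spine scaffold and signalling genes. Of these 7 genes, 5 had a higher mean and 2 a lower mean in EE. Their median log2 fold change was 0.15, beside -0.18 over all 584 genes. At an unadjusted p under 0.01 in edgeR, 1 of these 7 was called higher and 2 were called lower, beside 19.2% of the table called higher and 40.6% called lower. Counts this small are near those shares.

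Wipf3, of the WIP family that binds N-WASP, was the gene called higher, from 135.6 ± 8.30 FPKM (SD, n = 3) in SH to 160.4 ± 11.7 FPKM (SD, n = 3) in EE. In edgeR this was 0.24 ± 0.07 (standard error) on the log2 scale, with an adjusted p of 0.016. Nckap1 had a log2 fold change of 0.14 (adjusted p = 0.039 in edgeR) and Capzb of 0.15 (adjusted p = 0.035 in edgeR), near those of Actr2 and Arpc2, and like them did not pass the threshold. Palm, which encodes the membrane-bound protein paralemmin, fell from 62.7 ± 0.58 FPKM in SH to 52.8 ± 1.78 FPKM in EE, which edgeR put at -0.25 ± 0.04 (standard error) on the log2 scale with an adjusted p of 0.014. Limk1, the kinase that inactivates the filament-severing protein cofilin, fell from 7.25 ± 0.34 FPKM to 6.16 ± 0.31 FPKM, or -0.24 ± 0.07 (standard error) on the log2 scale with an adjusted p of 0.016 in edgeR. With TMM factors all 5 higher genes and Palm were called and Limk1 was not (adjusted p = 0.044 in edgeR). That scaling called 229 of the table's 584 genes higher and 9.08% of them lower, and 246 genes had a higher mean, so calls among the higher genes were the rule. Leaving out 1 library at a time, Palm was called in 6 of 6 edgeR fits, Wipf3 and Limk1 in 2, and Actr2, Arpc2 and Capzb in 1 each, in all 3 cases the fit without SH replicate 3.

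**Figure D4:**
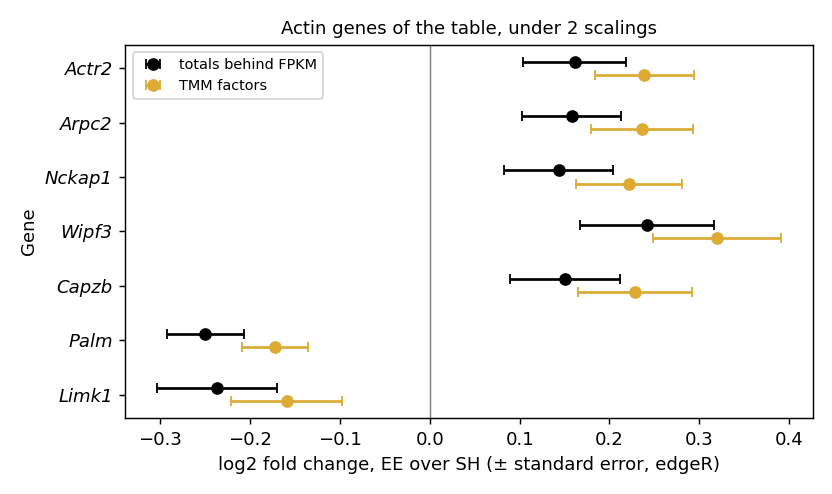
Log2 fold change of EE over SH with its standard error from edgeR (x axis) for the 7 listed actin genes of the table (y axis). Library sizes were the totals behind FPKM (black) or used TMM factors (yellow). Actr2, Arpc2, Nckap1, Wipf3 and Capzb lie above 0 and Palm and Limk1 below 0 under both scalings.

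By level per exon length the 7 listed actin genes kept nearly the same order in all 6 libraries. Arpc2 was first (183.4 to 217.6 FPKM), Nckap1 next (169.5 to 195.3 FPKM), Actr2 stood below Wipf3 and Capzb, and Palm (51.3 to 63.3 FPKM) and Limk1 (5.86 to 7.52 FPKM) came last in each of them. The ranges of Arpc2 and Nckap1 over the 6 libraries overlapped, although their order held within each library. Capzb (137.4 to 163.6 FPKM) and Wipf3 (127.0 to 170.9 FPKM) exchanged places between libraries, so their levels did not differ beyond their spread.

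The hippocampus holds several cell types, and in bulk RNA a different number of cells and a different level per cell cannot be told apart. Of 12 markers of microglia, 1 was in the table, the purinergic receptor gene P2ry12. Its level was 20.8, 18.6 and 21.7 FPKM in SH replicates 1, 2 and 3 and 24.0, 24.8 and 23.5 FPKM in the EE libraries, so it was higher in every EE sample. The log2 difference was 0.24 ± 0.07 (standard error, adjusted p = 0.016 in edgeR), and the r of P2ry12 over the 6 libraries was 0.91 with Actr2 (place 58 of 583) and 0.89 with Arpc2 (place 67 of 583), beside medians of 0.82 and 0.79 over the genes with a higher mean in EE. For deviations from the group means the r of P2ry12 was 0.63 with Actr2 and 0.59 with Arpc2, and without SH replicate 3 it was 0.24 and -0.17. With single libraries left out, it ran from 0.11 (without SH replicate 2) to 0.88 (without EE replicate 2) with Actr2. With Arpc2 it ran from -0.17 to 0.999 (without SH replicate 1). The astrocyte genes Aldh1l1 (-0.21) and Gja1 (-0.15) and the endothelial gene Cldn5 (-0.44), given as log2 fold changes, were called lower in EE, and the vessel gene Cd34 (-0.25) was not called (adjusted p = 0.023 in edgeR). None of the 10 neuronal, 11 oligodendrocyte or 3 choroid plexus markers was in the table, so the labelled tissue could not be checked against them. The part of cell composition in the levels of Actr2 and Arpc2 was not tested.

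Exon GC content was lower in the genes higher in EE (median 43.9%, 242 genes) than in those lower in EE (median 56.8%, 333 genes), and Actr2 and Arpc2 sat differently on this axis. Of the 82 other genes within 2 percentage points of the 40.6% of Actr2, 76 (92.7%) had a higher mean in EE, and the median log2 difference was 0.20. Actr2, at 0.16, was thus close to its neighbours in GC content. Of the 77 other genes within 2 points of the 50.0% of Arpc2, 32 (41.6%) were higher, and the median log2 difference was -0.18. Arpc2, at 0.16, lay on the less frequent side there. The part of GC content in these differences was not tested.

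**Figure D5:**
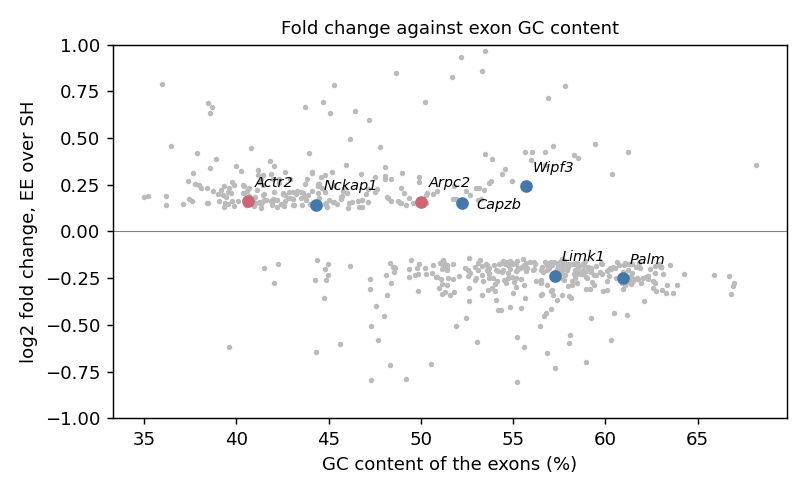
Log2 fold change of EE over SH from edgeR (y axis) against exon GC content in percent (x axis). There is 1 point per gene for 568 of the 575 genes with a GC value. Actr2 and Arpc2 are in red and the other listed actin genes in blue. The 7 genes not drawn lie outside the y axis. Actr2 sits among genes higher in EE at 40.6% GC, and Arpc2 at 50.0% GC where genes of both directions are found.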

How the data were processed

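RNA-seq libraries of hippocampal RNA, 3 from SH and 3 from EE mice, were analysed. The authors mapped reads to mm10 with Hisat2, counted them per gene with FeatureCounts and deposited raw counts for the 584 genes they had called with edgeR at a p-value of 0.01. Their threshold also named an absolute fold change of 1, which was not applied here, since genes of the table lie below 1 on the log2 scale and a linear fold of 1 removes none. The authors deposited FPKM as well, which scale the counts by gene length and library depth. The deposited p-value and log2 fold change columns hold the authors' own comparison and were not used. Genes without a call of the authors are not in the table.

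Library totals were recovered by dividing each count by its FPKM and the RefSeq exon length, where 205 genes gave the same total within 0.001%. They were between 31969156 and 53943195 reads, and the table held 8.13% to 8.85% of them. Exon data matched 561 genes by symbol and 14 by an older symbol, and 9 were not matched.

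EE was compared with SH by edgeR 4.0.16 (quasi-likelihood, R 4.3.3) on all 584 genes, with these totals as library sizes and no filter. The alternatives used limma 3.58.1, DESeq2 1.42.0, other library sizes, a minimum mean count of 100, a pseudocount of 1 and single libraries left out. Likeness used log2(FPKM + 0.1). Whether a sample is 1 animal or a pool is not given in the sources used here, and p-values measure the spread between these samples.

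The members, the gene lists and the tests were chosen with earlier results of these data known. Named genes were Actr2 and Arpc2, all table genes of the actin and cell type lists, and the 5 genes most like each member. Promoter motifs and the GC windows were chosen later. Replicate numbers are shared by SH and EE, but the animals differ and same-numbered libraries did not deviate together, so no pairing was used.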

Additional observations from a re-analysis of the deposited data

How the results depend on the processing

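Actr2 and Arpc2 were higher in EE in the main comparison and in all 15 other settings run. Their log2 fold changes passed p under 0.01 with TMM factors (0.24 and 0.24), DESeq2's own size factors (0.27 and 0.27) and DESeq2 with the totals (0.16 and 0.16). The TMM factors and DESeq2's own rest on the 584 selected genes alone and moved the median log2 fold change of all of them from -0.18 to -0.098 and -0.067, so passing under them is a limited check. Leaving out single libraries gave 0.13 to 0.20 for Actr2 and 0.13 to 0.21 for Arpc2. Counts of called genes moved with the scaling: 229 higher and 53 lower with TMM, 233 and 29 with DESeq2's own size factors, and 25 higher with the table sum. They ran from 52 to 98 higher and from 77 to 228 lower with single libraries left out. The actin list had 6 calls with TMM and 1 to 6 with single libraries left out, and without SH replicate 1, SH replicate 2, EE replicate 2 or EE replicate 3 it had 1. The ratio of Arpc2 to Actr2 was reversed for raw counts (-0.40 on the log2 scale) by the longer exons of Actr2, and was 0.76 to 0.78 with single libraries left out, where 5 libraries cannot give a p under 0.063. Its difference between EE and SH ran from -0.034 to 0.024, on both sides of 0. The r of the pair was 0.86 to 0.94 with single libraries left out and 0.60 for deviations from the group means. With single libraries left out, the r of the deviations was -0.72 without SH replicate 3, and 0.67 and 0.54 without SH replicates 1 and 2. It was 0.73, 0.82 and 0.60 without EE replicates 1, 2 and 3. Both settings of deviations were added after seeing the data.

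With the replicate number as a block, the log2 fold changes were 0.16 for Actr2 (adjusted p = 0.037) and 0.16 for Arpc2 (adjusted p = 0.039) in edgeR. This fit called 78 genes higher and 136 lower, with 2 actin calls, Wipf3 and Palm. Limk1 lost its call there (unadjusted p = 0.0106 in edgeR). Under the same block the ratio difference was -0.0021. Deviations of same-numbered libraries had correlations of 0.15, -0.044 and -0.098, so the numbers do not pair the samples. Counting error was at most 1.02% in a library for these genes. The calls moved with the scaling, with the tool at the same totals and with SH replicate 3, and the effect of the number of samples was not tested.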
